A study of Mus musculus with 45 samples.

Results

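The Zfp genes are the mouse genes named for a zinc finger protein, whose symbol is Zfp followed directly by a number. They were taken from the count table by 3 rules: the symbol, a protein-coding annotation and a mean of at least 10 CPM (the reads of a gene scaled to the total of its library) over the 45 libraries. Of 54532 rows, 394 were protein-coding Zfp genes, and 187 of these met the minimum and are described here. The other 207 were below it, among them 6 with 0 reads in every library. Just inside the minimum were Zfp467 with a mean of 10.1 CPM and Zfp521 with 10.2 CPM, and just outside were Zfp790 with 9.9985 CPM and Zfp606 with 9.98 CPM.

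RNA was sequenced from primary hippocampal neurons of newborn (P0) C57BL/6N mice, grown in B27 with rat serum, given AraC on day 3 in vitro and treated on day 10 or 11 by the labels, with day 11 named in the sequencing methods. All 9 conditions share this culture regime. A condition had 5 libraries, and the 5 came from separate culture preparations, numbered 1, 3, 6, 7 and 8. Control cultures were untreated, and bicuculline (Bic, 50 µM), which blocks GABA type A receptors and so starts action potential firing, was given for 0.5, 1 or 2 h. In the short protocol (SP), 0.5 h of Bic was followed by 0.5 h of Bic with tetrodotoxin (TTX, 1 µM), which blocks firing, or with TTX and NMDA (30 µM). The long protocol (LP) ran for 1 h in each period and used TTX alone, TTX plus NMDA, or instead TBOA (50 µM), which inhibits glutamate uptake. TTX against Bic of the same total time is called the passive effect, TTX/NMDA against TTX the active effect, TTX/NMDA against Bic the total effect and TBOA against 2 h Bic glutamate spillover. Totals ran from 11316580 to 81129276 reads per library, and the lowest count of any of the 187 genes in any library was 70 reads. Summed over 8 neuronal marker genes the libraries had 6008 to 8271 CPM, 1399 to 3049 CPM over 4 markers of GABAergic neurons, against 452 to 1919 CPM for 7 astrocyte markers, 97.5 to 337 CPM for 7 markers of the oligodendrocyte lineage and 4.57 to 9.45 CPM for 6 microglial markers, 4 of which (Cx3cr1, P2ry12, Tmem119 and Aif1) had a mean under 1 CPM. Markers of dividing cells, endothelial cells and red blood cells stayed at or below 18.9, 6.26 and 0.337 CPM. In bulk RNA, fewer cells of a type and less RNA per cell cannot be told apart.

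A zinc finger is a short protein loop held by a zinc ion. In the C2H2 type, pairs of cysteines and histidines hold the zinc, and arrays of such fingers read DNA sequence. Many mammalian C2H2 proteins carry a KRAB box at the other end, which binds the corepressor Trim28 (KAP1) and recruits enzymes that silence chromatin, above all at transposable elements. KRAB zinc finger genes form a large, fast-evolving family that lies in clusters of duplicated neighbours. Zfp36, Zfp36l1 and Zfp36l2 belong to a different class, the CCCH type: they bind AU-rich stretches of mRNA and bring in the CCR4-NOT complex, which shortens the poly-A tail.

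A script searched the longest annotated coding sequence of each gene for finger patterns and for a KRAB profile. The profile matched 75 of the 187 genes (40.1%), and the other 112 had no match, which does not show that their proteins lack the box. The 187 genes had a median of 9 C2H2 matches (range 0 to 36). Genes with the KRAB profile had a median of 11 (3 to 27), and genes without it 7.5 (0 to 36). The 4 genes with 0 C2H2 matches were Zfp365, Zfp330, Zfp703 and Zfp36l2, the last with 2 CCCH fingers. Chromosome 7 held 42 of the genes (17 with KRAB), chromosome 17 held 20 (15 with KRAB) and chromosome 6 held 14 (7 with KRAB). Per kilobase of exon, KRAB genes had a median level of 3.09 CPM per kb and the others 5.21 CPM per kb. The highest mean CPM values were those of Zfp706 (265), Zfp106 (188) and Zfp91 (155). On the per-length scale Zfp706 (53.3 CPM per kb) was followed by Zfp428 (34.4) and Zfp580 (28.3). Zfp706 did not pass the test after 2 h Bic, at 284 ± 31.3 CPM in Control and 248 ± 10.3 CPM after 2 h (SD, n = 5).

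Upstream sequences are shown for 7 KRAB genes, because neighbouring copies that responded alike or differently can be compared there. They are the 100 bases before the RefSeq start, on build GRCm38.p6, in the direction of transcription, and RefSeq promoters could be matched by symbol for 151 of the 187 genes. Capitals mark TGACG or its reverse complement, the core of the element bound by the activity-regulated factor CREB; TGACGTCA is its full palindrome and holds the core on both strands. Zfp763 (chr17:33033382-33033481, minus strand) and Zfp952 (chr17:32993039-32993138, plus strand) lie next to each other, Zfp667 (chr7:6286480-6286579, plus strand) stands apart in its response, and the other 4 come from 2 pairs of neighbours, Zfp874a (chr13:67451625-67451724) with Zfp874b (chr13:67484254-67484353) and Zfp266 (chr9:20521420-20521519) with Zfp426 (chr9:20492747-20492846), all on the minus strand.
Zfp763: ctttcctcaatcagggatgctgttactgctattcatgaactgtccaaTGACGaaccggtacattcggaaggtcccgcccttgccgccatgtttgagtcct
Zfp952: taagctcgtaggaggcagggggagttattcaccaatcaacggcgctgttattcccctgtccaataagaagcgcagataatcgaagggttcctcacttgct
Zfp667: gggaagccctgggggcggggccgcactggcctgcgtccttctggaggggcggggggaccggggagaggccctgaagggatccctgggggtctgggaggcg
Zfp874a: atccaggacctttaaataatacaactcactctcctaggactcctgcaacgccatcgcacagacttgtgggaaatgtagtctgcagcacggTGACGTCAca
Zfp874b: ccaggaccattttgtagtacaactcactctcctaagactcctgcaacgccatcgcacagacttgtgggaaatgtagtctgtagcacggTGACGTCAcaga
Zfp266: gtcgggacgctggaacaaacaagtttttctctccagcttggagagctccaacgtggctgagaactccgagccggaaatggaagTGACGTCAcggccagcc
Zfp426: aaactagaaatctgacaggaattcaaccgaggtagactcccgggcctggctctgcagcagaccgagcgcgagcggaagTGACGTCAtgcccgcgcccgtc

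In these windows the palindrome began 10 and 12 bases before the start of Zfp874a and Zfp874b, and 17 and 22 bases before that of Zfp266 and Zfp426. Over the whole RefSeq promoters, TGACGTCA was found in 4 of the 65 KRAB promoters (6.15%), which are these 4, in 2 of the 86 other Zfp promoters (2.33%, Zfp335 and Zfp523) and in 507 of all 27025 promoters (1.88%). The core TGACG on either strand was found in 33.8% of the KRAB promoters, 33.7% of the other Zfp promoters and 21.02% of all promoters, and TATAAA in 4.62%, 10.5% and 14.2%. In the 48 promoters of KRAB genes that were lower after 2 h Bic, TGACGTCA was found in 4.17%, the core in 29.2% and TATAAA in 6.25%. The Zfp874a and Zfp874b windows were 89.2% identical in a global alignment. Both genes were lower after 2 h Bic, Zfp874a with a log2 fold change of -0.60 ± 0.11 (SE, adjusted p = 0.000218) and Zfp874b with -0.62 ± 0.11 (adjusted p = 8.42e-05), both by edgeR's quasi-likelihood test. Zfp266 and Zfp426, with the same 8 letters, did not pass that test, at -0.14 ± 0.08 (adjusted p = 0.308) and 0.08 ± 0.08 (adjusted p = 0.537). Reads that fit several places were left out of the counts, so the values of near-identical copies such as Zfp874a and Zfp874b rest on the stretches in which they differ and are uncertain.

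Many Zfp genes, and a larger share of the KRAB genes, were at lower levels after Bic. After 2 h Bic, 94 of the 187 genes were lower than in Control and 13 were higher, while over all 30929 genes tested 9.02% were called, 4.78% lower and 4.24% higher (adjusted p under 0.05, edgeR's quasi-likelihood test). Among the genes with the KRAB profile, 55 of 75 (73.3%) were lower and 3 higher, and among the others 39 of 112 (34.8%) were lower and 10 higher. Of the 9362 coding genes with a mean of at least 10 CPM, 10.4% were lower and 9.10% higher. With library totals in place of TMM factors, chosen after the data were seen, 19.8% of the coding genes were lower and 6.54% higher, and 106 Zfp genes were lower and 10 higher (59 and 2 with the KRAB profile), while the KRAB median relative to the coding median was -0.46 under either scaling. KRAB genes had a median log2 fold change of -0.46, the other Zfp genes of -0.14 and the coding genes of 0.00. The 13 higher genes included 3 KRAB genes, Zfp948, Zfp954 and Zfp667, of which Zfp667 (0.29 ± 0.09, adjusted p = 0.0484) was no longer called with library totals. Of the cell type markers, 2 of 4 for GABAergic neurons and 1 of 7 for astrocytes were higher and 1 of 8 for neurons was lower, and their part in the results on Zfp genes was not tested.

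**Figure D1:**
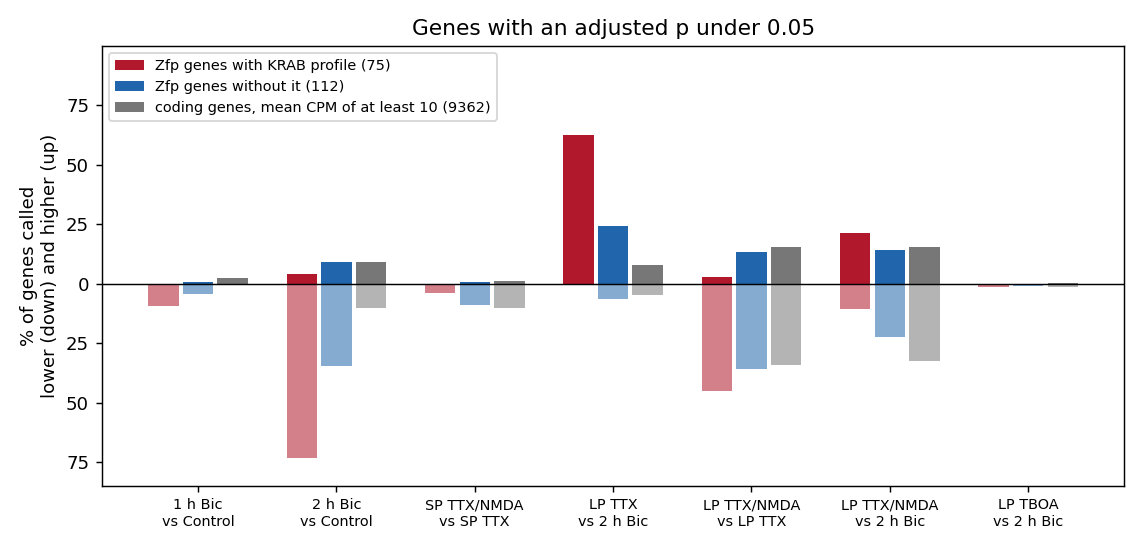
Share of genes called lower (bars down) or higher (bars up) at an adjusted p under 0.05 in 7 comparisons, for the 75 Zfp genes with the KRAB profile, the 112 without it and the 9362 coding genes with a mean of at least 10 CPM, in percent of each set. The lower share of KRAB genes reaches 73.3% after 2 h Bic and the higher share 62.7% for LP TTX against 2 h Bic.

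The change built up over time. After 0.5 h Bic, 0 of the 187 genes passed the test by edgeR or DESeq2, with 0.289% of all genes called, all of them higher, and 4 of the 187 had an unadjusted edgeR p under 0.05. After 1 h, 12 Zfp genes were lower and 1 was higher, against 0.195% and 0.965% of all genes (1.16% in all), and 7 of the 12 had the KRAB profile. From 1 to 2 h Bic, 77 were lower and 9 higher (42 and 3 with the KRAB profile), against 2.8% and 2.53% of all genes (5.33% in all). With the culture preparation as a block, which pairs the libraries and was fitted over the genes that filterByExpr kept, the counts at 1 h were 30 lower and 4 higher, and with that filter and no block they were 11 and 2. The calls at 1 h numbered 7 without preparation 1, 6 without preparation 6, 3 without preparation 7 and 6 without preparation 8. Within preparations, the median log2 ratio of the KRAB genes to the Control library of the same preparation was -0.01 ± 0.06 after 0.5 h, -0.18 ± 0.06 after 1 h and -0.53 ± 0.06 after 2 h (SD, n = 5, log2 of CPM + 1). The coding genes had -0.09 ± 0.03 after 2 h on the same scale, and the other Zfp genes -0.23 ± 0.03. In all 5 preparations, the KRAB median after 2 h was between -0.60 and -0.47, below the range of the coding genes (-0.14 to -0.06).

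**Figure D2:**
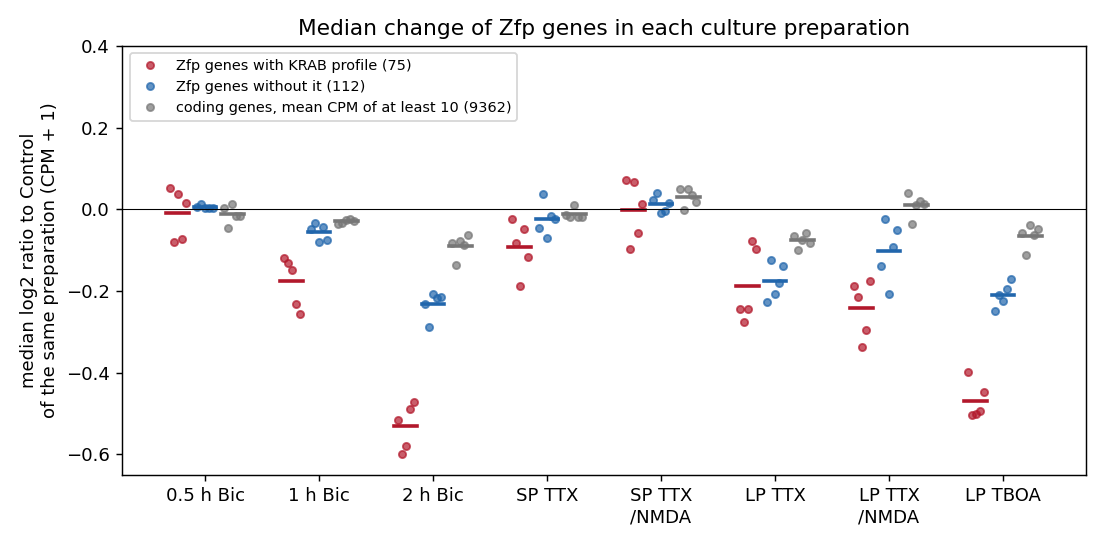
Median log2 ratio of each condition to the Control library of the same culture preparation (y axis, log2 of CPM + 1) for Zfp genes with and without the KRAB profile and for coding genes; each point is 1 preparation and the bar is the mean of 5. The KRAB points lie lowest after 2 h Bic (mean -0.53) and with LP TBOA (mean -0.47).

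Summed over the 75 KRAB genes, the RNA made up 1809 ± 67.8 CPM in Control, 1815 ± 109 CPM after 0.5 h, 1635 ± 82.5 CPM after 1 h and 1304 ± 62.9 CPM after 2 h Bic (SD, n = 5). The 5 libraries after 2 h (1259 to 1410 CPM) lay below all Control libraries (1733 to 1899 CPM). The sum over the other 112 genes was 4851 ± 137 CPM in Control and 4295 ± 69.8 CPM after 2 h.

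The 6 genes with the largest decreases after 2 h Bic all had the KRAB profile. Zfp763 (ENSMUSG00000067430, chromosome 17, 33016863 to 33033402, minus strand, GRCm38, 13 C2H2 matches) had 20.1, 27.995, 22.5, 21.2 and 24.1 CPM in the Control libraries of preparations 1, 3, 6, 7 and 8. After 2 h Bic it had 9.18, 7.43, 8.85, 9.69 and 12.3 CPM in the same order. The groups did not overlap, and the log2 fold change was -1.20 ± 0.11 (SE, adjusted p = 9.84e-11).

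Zfp60 (ENSMUSG00000037640, chromosome 7, 27731389 to 27753702, plus strand, 19 C2H2 matches) had 32.7, 33.4, 34.04, 32.9 and 34.1 CPM in Control and 14.8, 13.8, 12.9, 13.8 and 17.2 CPM after 2 h, again without overlap (log2 fold change -1.12 ± 0.08, adjusted p = 1.38e-12). It was at 27.05, 31.4, 28.96, 23.8 and 24.2 CPM after 1 h, below its Control library in each preparation, though its adjusted p there was 0.192 (0.0410 with the preparation block). Zfp120 (-1.11 ± 0.12), Zfp952 (-1.08 ± 0.10), Zfp719 (-1.07 ± 0.10) and Zfp780b (-1.07 ± 0.10) followed, each lower in 5 of 5 preparations with an adjusted p of at most 5.63e-09. After 1 h the largest decreases were those of Zfp763 (-0.51 ± 0.10, adjusted p = 0.00112), Zfp780b (-0.46 ± 0.10, adjusted p = 0.00749) and Zfp719 (-0.46 ± 0.10, adjusted p = 0.00857). The Zfp719 call at 1 h was lost without preparation 7 (adjusted p = 0.157) or preparation 8 (adjusted p = 0.0746). From 1 to 2 h, Zfp60 (-0.85 ± 0.09), Zfp40 (-0.83 ± 0.10) and Zfp120 (-0.82 ± 0.11) fell most.

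The largest increase after 2 h Bic was that of Zfp516, which encodes a C2H2 protein known for its part in brown fat. Zfp516 (ENSMUSG00000058881, chromosome 18, 82910663 to 83005314, plus strand, 10 C2H2 matches) had 15.2, 11.98, 15.05, 14.1 and 16.8 CPM in Control and 55.6, 49.0, 59.3, 53.1 and 58.4 CPM after 2 h. The log2 fold change was 2.00 ± 0.09 (adjusted p = 9.19e-19), and nearly all of it fell between 1 and 2 h (1.87 ± 0.08), since the libraries after 1 h (14.1 to 18.6 CPM) still overlapped Control. Zfp275 (ENSMUSG00000031365, chromosome X, 73342621 to 73359080, plus strand, 11 C2H2 matches) rose from 30.2, 22.1, 31.9, 31.5 and 28.2 CPM to 55.8, 47.6, 55.3, 55.5 and 55.8 CPM (0.99 ± 0.09, adjusted p = 4.42e-10), without overlap. Zfp948 (0.99 ± 0.10, from 13.2 ± 1.68 to 24.8 ± 3.09 CPM), Zfp703 (0.79 ± 0.10), Zfp954 (0.56 ± 0.10) and Zfp281 (0.53 ± 0.08), a regulator of pluripotency genes, were also higher in 5 of 5 preparations. Zfp948 and Zfp275 rose between 1 and 2 h too, by 0.78 ± 0.09 and 0.64 ± 0.08.

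**Figure D3:**
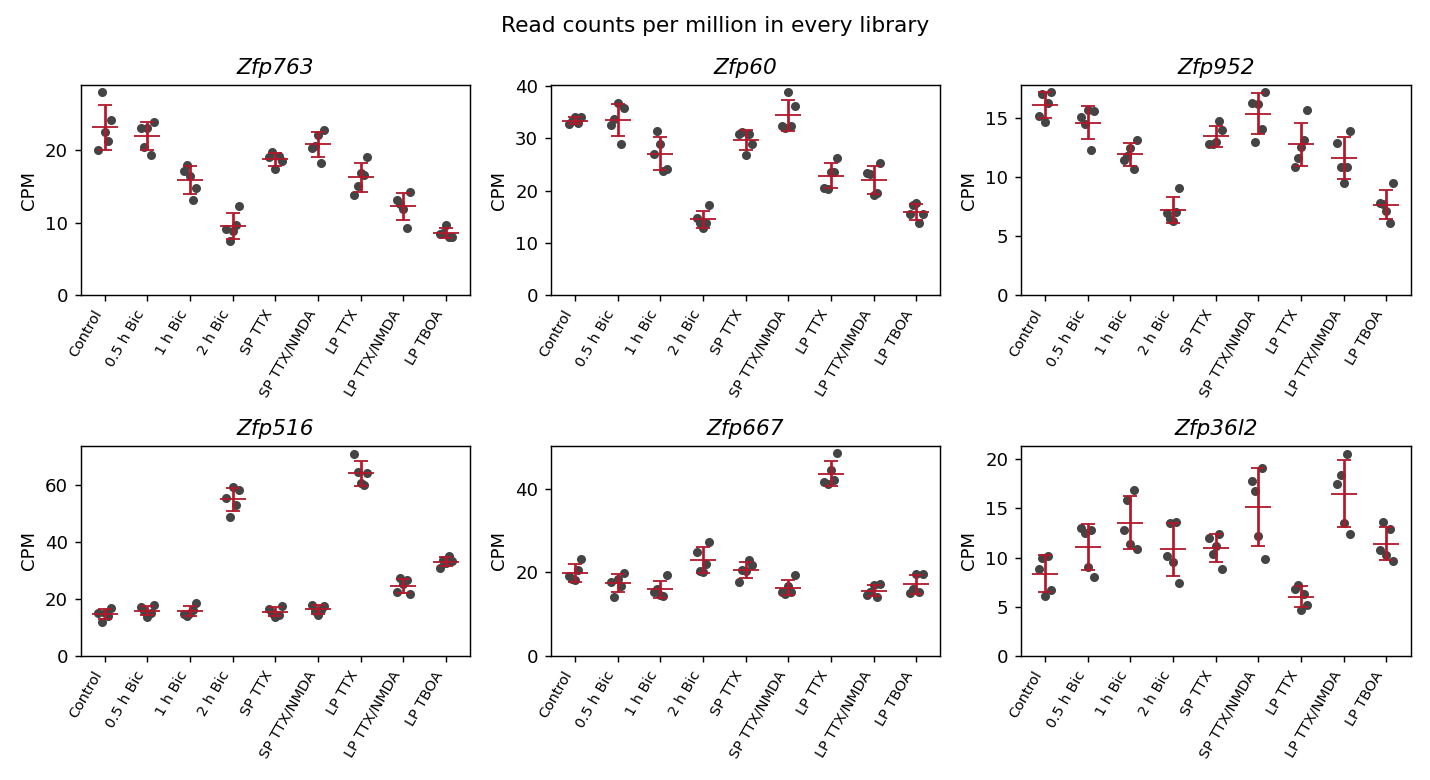
CPM (y axis, from 0) of 6 Zfp genes in all 45 libraries by condition (x axis); points are the 5 preparations, and red bars are mean ± SD. Zfp763, Zfp60 and Zfp952 are lowest after 2 h Bic and with LP TBOA, Zfp516 and Zfp667 are highest with LP TTX, and Zfp36l2 is lowest there.

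Finger number and the change after 2 h Bic were compared across genes as a description, since all genes come from the same 10 libraries and are not independent. Spearman's rho between the number of C2H2 matches and the log2 fold change was -0.43 over the 187 genes, -0.28 within the 75 KRAB genes and -0.41 within the other 112. Of the 35 genes without the KRAB profile and with 0 to 4 matches, 5 were lower and 5 higher (median -0.01), whereas of the 15 with at least 15 matches, 8 were lower and 0 higher (median -0.28). Among KRAB genes, 15 of 21 with 5 to 9 matches were lower (median -0.37) and 15 of 19 with at least 15 matches (median -0.67). The mean level went along with the change as well (rho 0.35 over the 187 genes, with larger decreases at low levels), and its part in the relation was not tested. Zfp142, with the most matches (36), had a log2 fold change of 0.09.

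**Figure D4:**
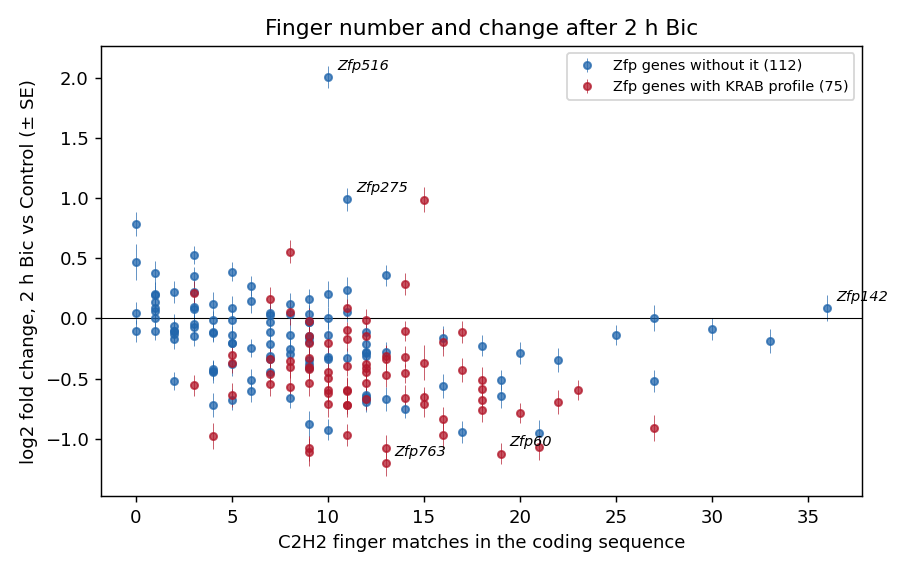
Number of C2H2 finger matches in the coding sequence (x axis) against the fitted log2 fold change after 2 h Bic (y axis, error bars are SE) for each of the 187 Zfp genes, in red for the 75 with the KRAB profile. Genes with few matches lie on both sides of 0, Zfp516 at 2.00 stands highest and Zfp763 at -1.20 lowest.

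The decreases were not limited to 1 chromosome. On chromosome 7, 13 of 17 KRAB genes were lower after 2 h Bic and 2 higher, on chromosome 17, 10 of 15 were lower and 1 higher, and on the remaining chromosomes 32 of 43 were lower and 0 higher. Runs of at least 4 of the 187 genes with gaps of at most 200000 bases numbered 6. In the run of Zfp628, Zfp579, Zfp865 and Zfp580 on chromosome 7, none with the KRAB profile, 1 of 4 was lower (median -0.21). In 3 others every gene was lower: Zfp398, Zfp282, Zfp212, Zfp956, Zfp777 and Zfp746 on chromosome 6 (median -0.55), Zfp30, Zfp940, Zfp420, Zfp27, Zfp74, Zfp260 and Zfp146 on chromosome 7 (median -0.64) and Zfp874a, Zfp874b, Zfp729a and Zfp738 on chromosome 13 (median -0.70). In the run of Zfp871, Zfp811, Zfp799, Zfp952 and Zfp763 on chromosome 17, 3 of 5 genes were lower (median -0.97). By contrast, 1 of 4 genes was lower in the run of Zfp26, Zfp426, Zfp266 and Zfp846 on chromosome 9 (median -0.12), although all 4 had the KRAB profile.

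Genes of other names were read in the same fit, in which 10.4% of the coding genes were lower and 9.10% higher. Of 11 KRAB-profile genes with a mean of at least 10 CPM and another symbol, 7 were lower after 2 h Bic and 0 higher (median -0.46), led by 2610008E11Rik (-1.32) and Gm12258 (-1.28); Zkscan16 is in this list and the next. Of 35 genes of the Zbtb, Zscan, Zkscan and Zfhx families, C2H2 proteins that pair their fingers with other domains, 15 were lower and 6 higher (median -0.22), from Zbtb6 (-1.02) to Zbtb10 (1.78). Of 19 genes of the machinery that KRAB boxes recruit, 5 were lower and 0 higher (median -0.10): Fam208a (-0.69), a subunit of the HUSH silencing complex, Smarcad1 (-0.66), Morc3 (-0.57), Atf7ip (-0.56) and Mphosph8 (-0.41). Trim28 (0.10) and the methyltransferase gene Setdb1 (-0.21) did not pass. By role within the Zfp genes, the 9 listed genes with RNA or ribosome functions had 1 lower, Zfp638 (-0.52), and 1 higher, Zfp622 (0.35), a factor of ribosome assembly. The 15 listed neural and developmental genes had 2 lower, Zfp292 (-0.75) and Zfp148 (-0.42), and 5 higher, namely Zfp516, Zfp703, Zfp281, Zfp608 (0.38) and Zfp335 (0.36).

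The passive effect of the LP asks what an hour of silence changed against continued firing. Against 2 h Bic, 74 of the 187 genes were higher with LP TTX and 7 lower, with 3.03% and 1.62% of all 31944 genes called (4.65% in all). Of the KRAB genes, 47 of 75 (62.7%) were higher and 0 lower (median log2 fold change 0.34), and of the other Zfp genes, 27 of 112 (24.1%) were higher and 7 lower (median 0.06). Among the coding genes, 7.71% were higher and 4.70% lower (median 0.00). This comparison shares the 2 h Bic libraries with the one before, so opposite signs in the 2 are not independent. With the preparation as a block, 101 of the 187 were higher and 29 lower, and with its gene filter alone 75 and 14. The summed KRAB level was 1622 ± 110 CPM with LP TTX (1496 to 1797 CPM), above all libraries after 2 h Bic (1259 to 1410 CPM), and the lowest Control library (1733 CPM) was within its range. Of the cell type markers, 1 of 7 for astrocytes and 1 of 7 for the oligodendrocyte lineage were lower and none was higher. Their part in the results on Zfp genes was not tested.

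Zfp667 (ENSMUSG00000054893, chromosome 7, 6286579 to 6307883, plus strand, 14 C2H2 matches, KRAB profile) led the increases. Its levels were 24.8, 20.4, 20.004, 21.9 and 27.3 CPM after 2 h Bic and 41.6, 41.2, 44.5, 42.1 and 48.5 CPM with LP TTX. The groups stood apart, with a log2 fold change of 0.92 ± 0.08 (adjusted p = 3.32e-10), and the LP TTX libraries were above the 18.04 to 23.2 CPM of Control too. Zfp667 differed in this from Zfp952 (ENSMUSG00000053390, chromosome 17, 32993129 to 33005457, plus strand, 9 C2H2 matches), which had 15.2, 17.02, 14.7, 16.3 and 17.3 CPM in Control, 7.00, 6.48, 6.32, 7.08 and 9.07 CPM after 2 h Bic and 10.8, 11.7, 12.5, 13.2 and 15.6 CPM with LP TTX. Zfp952 was higher with LP TTX than after 2 h Bic in 5 of 5 preparations (0.82 ± 0.11, adjusted p = 4.06e-06), and 1 LP TTX library reached the Control range. Zfp212 (0.78 ± 0.10), Zfp763 (0.76 ± 0.11), Zfp37 (0.75 ± 0.09) and Zfp780b (0.74 ± 0.11) came next, and Zfp60 rose by 0.65 ± 0.09.

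The 7 lower genes all lacked the KRAB profile, and Zfp651 (-0.22), named after its value was seen, was the smallest decrease. Zfp36l2 (ENSMUSG00000045817, chromosome 17, 84183931 to 84187947, minus strand) fell from 10.1, 13.6, 9.53, 13.6 and 7.38 CPM after 2 h Bic to 6.85, 7.17, 4.69, 6.31 and 5.18 CPM with LP TTX (-0.86 ± 0.14, adjusted p = 8.85e-05), with no overlap. Zfp575 (ENSMUSG00000066721, chromosome 7, 24583838 to 24587641, minus strand) went from 11.3, 10.6, 10.4, 10.8 and 11.3 CPM to 9.49, 8.83, 8.70, 7.65 and 8.37 CPM (-0.36 ± 0.09, adjusted p = 0.0166). Zfp771 (-0.31 ± 0.08), Zfp580 (-0.28 ± 0.07), Zfp523 (-0.26 ± 0.06) and Zfp362 (-0.24 ± 0.07) were lower in 5 of 5 preparations. The calls of Zfp575, Zfp771, Zfp580, Zfp523 and Zfp362 were lost without preparation 7, with log2 fold changes of -0.31, -0.25, -0.23, -0.23 and -0.22 (adjusted p = 0.159, 0.120, 0.141, 0.115 and 0.229). Each was also lost without at least 1 other preparation, at -0.37 for Zfp575 without preparation 3 (adjusted p = 0.0619), at -0.24, -0.25 and -0.22 for Zfp771, Zfp580 and Zfp523 without preparation 6 (adjusted p = 0.152, 0.0878 and 0.116), at -0.25 for Zfp523 without preparation 3 (adjusted p = 0.0531), and at -0.27 to -0.21 for Zfp362 without any 1 of the 5 (adjusted p = 0.0703 to 0.229). The preparation block kept all of these calls and that of Zfp36l2.

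**Figure D5:**
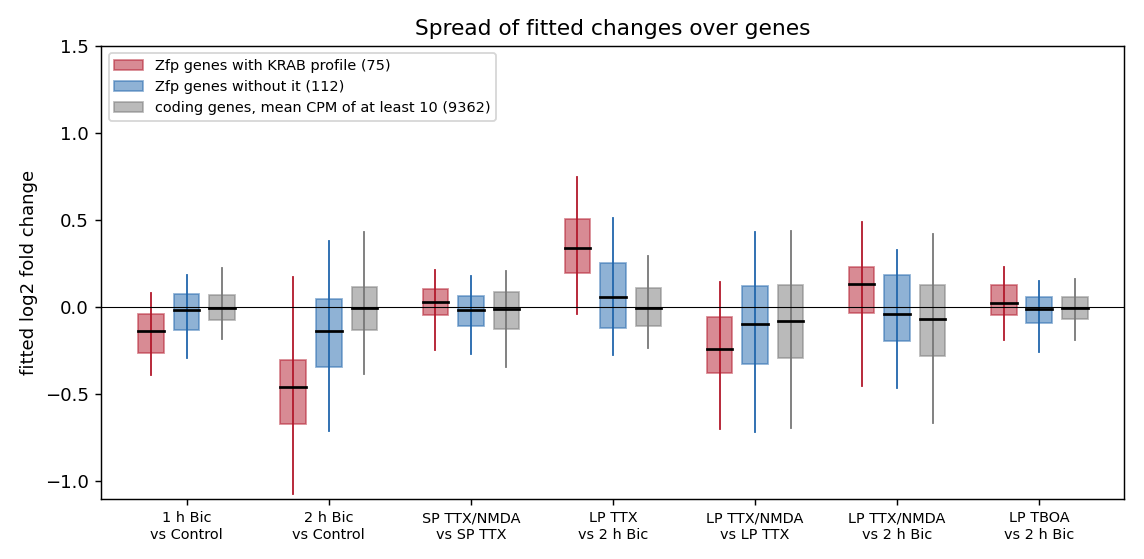
Spread of the fitted log2 fold changes over genes in 7 comparisons (y axis) for Zfp genes with and without the KRAB profile and coding genes with a mean of at least 10 CPM; boxes span the 25th to 75th percentile with the median as a black line, and lines run from the 5th to the 95th percentile. The middle of the KRAB genes lies from -0.67 to -0.31 after 2 h Bic and from 0.20 to 0.51 for LP TTX against 2 h Bic.

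The active effect of the LP asks what NMDA adds to silence. Against LP TTX, 74 of the 187 genes were lower with LP TTX/NMDA and 17 higher, with 11.8% and 11.6% of all 32852 genes called (23.3% in all). Of the KRAB genes 34 of 75 (45.3%) were lower and 2 higher (median -0.24), of the other Zfp genes 40 of 112 (35.7%) were lower and 15 higher (median -0.10), and of the coding genes 34.3% were lower and 15.3% higher (median -0.08). The split between lower and higher depended on the scaling: with library totals in place of TMM factors, chosen after the data were seen, the median of the coding genes moved by 0.18 to 0.10, and 37 Zfp genes were lower and 45 higher (17 and 9 with KRAB). Relative to the median coding gene, the KRAB median was -0.16 under either scaling and that of the other Zfp genes was -0.02. The astrocyte markers moved with this comparison, 7 of 7 higher (943 to 1919 CPM summed, against 458 to 931 CPM with LP TTX), as did 5 of 7 oligodendrocyte-lineage markers (171 to 337 against 97.5 to 161 CPM) and 3 of 3 markers of dividing cells (10.1 to 18.9 against 4.54 to 10.2 CPM), and 2 of 4 markers of GABAergic neurons (2054 to 3049 against 1605 to 2316 CPM), while 5 of 8 neuronal markers were lower (6008 to 6878 against 7304 to 7984 CPM). Their part in the results on Zfp genes was not tested.

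The leading decreases were larger than that shift. Zfp667 was at 14.6, 15.3, 16.9, 14.1 and 17.3 CPM with LP TTX/NMDA, less than any LP TTX library (41.2 to 48.5 CPM), with a log2 fold change of -1.66 ± 0.08 (adjusted p = 3.21e-15). Zfp516 had 71.0, 64.6, 60.8, 60.2 and 64.4 CPM with LP TTX and 22.4, 27.4, 25.4, 26.7 and 21.8 CPM with LP TTX/NMDA (-1.55 ± 0.08, adjusted p = 6.02e-15). The Zfp516 libraries with LP TTX/NMDA remained above Control (11.98 to 16.8 CPM). Zfp871 (-1.17 ± 0.09, from 30.7 ± 3.15 to 15.4 ± 1.46 CPM), Zfp704 (-0.86 ± 0.08), Zfp654 (-0.85 ± 0.10) and Zfp324 (-0.85 ± 0.10) followed, each lower in 5 of 5 preparations.

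Among the 17 higher genes, Zfp36l2 rose most, to 17.5, 18.4, 13.5, 20.6 and 12.4 CPM from 4.69 to 7.17 CPM with LP TTX (1.27 ± 0.13, adjusted p = 1.24e-08). Zfp467 (ENSMUSG00000068551, chromosome 6, 48427697 to 48445825, minus strand, 12 C2H2 matches) had 7.55, 8.14, 7.70, 6.80 and 6.31 CPM with LP TTX and 13.6, 13.1, 12.3, 12.004 and 9.75 CPM with LP TTX/NMDA (0.56 ± 0.11, adjusted p = 0.000268), without overlap. Zfp362 (0.55 ± 0.08), Zfp692 (0.52 ± 0.10), Zfp521 (0.45 ± 0.11), known from neural development, and Zfp341 (0.44 ± 0.09) were higher in 5 of 5 preparations. In CPM without TMM factors, 46.3% of the coding genes were too. The means by which Zfp467 and Zfp521 met the minimum (10.1 and 10.2 CPM) include these raised libraries. Their selection and their rise are therefore not independent.

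The counts of the other lists in the active effect are to be read against the 34.3% of coding genes that were lower and the 15.3% that were higher. Of the 15 neural and developmental Zfp genes, 8 were lower and 3 higher (median -0.29), among them Zfp608 (-0.75) and Zfp804a (-0.65). Of the 9 genes with RNA or ribosome functions, Zfp106 (-0.43) and Zfp385b (-0.36) were lower and Zfp385a (0.37) higher. The KRAB machinery had 7 lower, such as Morc2a (-0.45) and Chd3 (-0.42), and 2 higher, Uhrf1 (0.75) and Mphosph8 (0.31), of 19. The Zbtb, Zscan, Zkscan and Zfhx genes had 22 of 35 lower and 3 higher (median -0.31), and the KRAB-profile genes with other symbols had 6 of 11 lower and 0 higher (median -0.32). In the passive effect, in which 7.71% of the coding genes were higher and 4.70% lower, the same 2 lists had 10 of 35 and 5 of 11 higher and 0 lower each, the machinery had Fam208a (0.41) and Mphosph8 (0.27) higher, the RNA and ribosome list had Zfp638 (0.25) higher and the neural and developmental list Zfp292 (0.39).

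The total effect of the LP compared TTX/NMDA with 2 h Bic and gave a mixed picture. The summed astrocyte markers were at 943 to 1919 CPM with LP TTX/NMDA against 531 to 916 CPM after 2 h Bic, those of GABAergic neurons at 2054 to 3049 against 1658 to 2185 CPM and the neuronal markers at 6008 to 6878 against 7324 to 7619 CPM, and their part in the result was not tested. Of the 187 genes, 32 were higher and 33 lower, with 11.7% and 11.1% of all 32243 genes called (22.8% in all). Of the KRAB genes 16 were higher and 8 lower (median 0.13), of the other Zfp genes 16 were higher and 25 lower (median -0.04), and of the coding genes 15.4% were higher and 32.6% lower (median -0.07). With library totals as scaling, 95 of the 187 were higher and 14 lower and the coding median moved by 0.19 to 0.13. Relative to the median coding gene, the KRAB genes were at 0.20 under either scaling. With the preparation as a block, 71 were higher and 40 lower, and with its gene filter alone 51 and 35. Zfp40 (0.63 ± 0.11), Zfp738 (0.52 ± 0.09), Zfp422 (0.52 ± 0.08), Zfp952 (0.51 ± 0.11), Zfp160 (0.50 ± 0.11) and Zfp120 (0.48 ± 0.11) rose most. Zfp516 (-1.35 ± 0.08), Zfp667 (-0.74 ± 0.09), Zfp704 (-0.71 ± 0.08), Zfp275 (-0.67 ± 0.08), Zfp608 (-0.64 ± 0.09) and Zfp871 (-0.61 ± 0.09) fell most. These comparisons share libraries with the passive and the active effect.

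Few genes of any set were called for glutamate spillover. With LP TBOA, 2 of the 187 were lower than after 2 h Bic and 0 higher, against 0.549% and 0.0536% of all genes (0.602% in all). Of the coding genes with a mean of at least 10 CPM, 1.47% were lower and 0.0855% higher, near the Zfp share (1.07% lower). Zfp516 was at 30.9, 33.6, 32.6, 35.3 and 33.3 CPM, below the 49.0 to 59.3 CPM after 2 h Bic (-0.77 ± 0.07, adjusted p = 6.12e-09). Zfp667 was at 15.03, 16.1, 19.6, 15.2 and 19.5 CPM against 20.004 to 27.3 CPM (-0.46 ± 0.09, adjusted p = 0.00305). The KRAB sum was 1357 ± 59.1 CPM (1259 to 1405 CPM), which overlapped that after 2 h Bic, and the KRAB median log2 fold change was 0.02 (0.00 over the 187 genes). The block called 10 lower and 1 higher, its gene filter alone 2 lower, DESeq2 called 8 in all, and 4 were called without preparation 3 and 10 without preparation 8.

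In the SP, where firing lasted 0.5 h before the intervention, few Zfp genes passed the test. The passive effect against 1 h Bic gave 1 higher gene, Zfp281 (0.32 ± 0.07, adjusted p = 0.0181), and 0 lower, with 0.0157% and 0.252% of all genes called (0.268% in all). Zfp281 had 46.3 ± 2.52 CPM after 1 h Bic and 58.3 ± 1.55 CPM with SP TTX, and its call was lost without preparation 1 (adjusted p = 0.0554) or 7 (adjusted p = 0.227). The active effect gave 13 lower and 1 higher, against 3.32% and 0.956% of all genes (4.28% in all). Of the coding genes with a mean of at least 10 CPM, 10.3% were lower and 1.30% higher. The Zfp shares (6.95% and 0.535%) were below these. Zfp281 (-0.83 ± 0.07, adjusted p = 6.70e-10), Zfp871 (-0.66 ± 0.08) and Zfp704 (-0.45 ± 0.07) were lower, and Zfp385a (0.32 ± 0.07, adjusted p = 0.00455) was higher, though not without preparation 3 (adjusted p = 0.0565). The block called 21 lower and 9 higher, its gene filter alone 16 and 3, library totals as scaling 5 lower and 8 higher, and the calls numbered 7 without preparation 1, 7 without preparation 3 and 8 without preparation 7. Of the KRAB genes, 3 were lower and 0 higher with a median of 0.03.

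The active effect differed between the protocols for 32 Zfp genes by the test of the difference itself. It was more negative in the LP for 29 and more positive for 3, with 1.85% and 0.722% of all 35027 genes called (2.57% in all). Of the 29, 19 had the KRAB profile, and the KRAB median of the difference was -0.24 (-0.05 over the coding genes). Zfp516 (-1.55 ± 0.12, adjusted p = 4.81e-12), Zfp667 (-1.24 ± 0.12, adjusted p = 3.18e-09) and Zfp248 (-0.78 ± 0.13, adjusted p = 0.000109) led. Zfp248 had 19.8 ± 1.43 CPM with LP TTX and 13.8 ± 1.23 CPM with LP TTX/NMDA, against 13.3 ± 1.49 and 14.8 ± 1.31 CPM in the SP. The more positive genes were Zfp36l2 (0.88 ± 0.21, adjusted p = 0.0110), Zfp281 (0.47 ± 0.12, adjusted p = 0.0206) and Zfp362 (0.44 ± 0.10, adjusted p = 0.00744). The Zfp281 call was lost without preparation 3 (adjusted p = 0.126) and that of Zfp362 without preparation 1 (adjusted p = 0.0558). The block called 66 more negative and 11 more positive, its gene filter alone 40 and 6, library totals as scaling 14 and 7, and the calls numbered 20 without preparation 1, 17 without preparation 6 and 21 without preparation 7.

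Of the CCCH genes Zfp36, Zfp36l1 and Zfp36l2, the last alone met the minimum of 10 CPM. Zfp36l2 was at 8.84, 9.98, 6.06, 10.2 and 6.66 CPM in Control, at 13.05, 12.5, 9.08, 12.8 and 7.99 CPM after 0.5 h Bic and at 12.8, 15.8, 11.4, 16.8 and 10.8 CPM after 1 h. It was higher in 5 of 5 preparations at each time, and its groups after 1 h and in Control did not overlap (0.73 ± 0.13, adjusted p = 0.000572). The change was 0.42 ± 0.14 after 0.5 h (adjusted p = 0.810) and 0.47 ± 0.15 after 2 h (adjusted p = 0.0408, and 0.0602 by DESeq2), and -0.26 ± 0.13 from 1 to 2 h (adjusted p = 0.4223, and 0.00982 with the preparation block, lower in 5 of 5 preparations). The call after 2 h was also lost with filterByExpr, in the fit over all 45 libraries and with library totals, and kept with the preparation block. In the SP it had 12.004, 10.4, 11.2, 12.4 and 8.79 CPM with TTX (-0.33 ± 0.11, adjusted p = 0.749) and 17.8, 16.8, 12.2, 19.1 and 9.85 CPM with TTX/NMDA (0.40 ± 0.13, adjusted p = 0.0811, and 0.0222 with the block). The LP total effect was 0.41 ± 0.14 (adjusted p = 0.0271, and 0.0729 by DESeq2), and with LP TBOA, at 10.7, 13.6, 10.3, 12.9 and 9.67 CPM, the change was 0.04 ± 0.13 (adjusted p = 0.942). The LP total call was also lost with filterByExpr and in the fit over all 45 libraries, and kept with the preparation block.

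Its relatives Zfp36l1 (ENSMUSG00000021127, chromosome 12, 80107754 to 80113013, minus strand, mean 8.20 CPM) and Zfp36 (ENSMUSG00000044786, chromosome 7, 28376784 to 28380253, minus strand, mean 1.05 CPM) were below the minimum of 10 CPM and are given for comparison. Zfp36l1 had 5.04, 7.89, 4.26, 7.54 and 5.37 CPM in Control, 7.59, 8.77, 4.33, 9.26 and 6.05 CPM after 2 h Bic, 6.11, 6.17, 2.72, 6.46 and 3.82 CPM with LP TTX and 16.996, 15.7, 8.32, 17.7 and 11.99 CPM with LP TTX/NMDA. The LP TTX/NMDA libraries lay above all Control and LP TTX libraries and overlapped those after 2 h Bic, since preparation 6 had 8.32 CPM. Zfp36l1 rose in the active effect by 1.30 ± 0.18 (adjusted p = 1.84e-06) and in the total effect by 0.80 ± 0.16 (adjusted p = 0.000224). After 2 h Bic its change was 0.32 ± 0.17 (adjusted p = 0.311, and 0.0162 with the preparation block). In the LP passive effect it was -0.50 ± 0.18 (adjusted p = 0.124, and 4.46e-05 with the block). Zfp36 was between 0.475 and 1.09 CPM in Control, between 0.419 and 1.07 CPM with LP TTX and between 0.965 and 1.99 CPM with LP TTX/NMDA, and it passed the test in the active effect alone (0.83 ± 0.24, adjusted p = 0.00931). Of the 20 listed genes of the CCR4-NOT complex and of mRNA decay, 5 were lower and 0 higher after 2 h Bic (median -0.17), led by the decapping factor Dcp1a (-0.69), 6 were higher and 1 lower in the LP passive effect, with Dcp1a at 0.81, and 7 were lower and 1 higher in the LP active effect, with Dcp1a at -0.69 and the scaffold Cnot1 at -0.48. The coding genes beside them were 10.4% lower and 9.10% higher after 2 h Bic, 7.71% higher and 4.70% lower in the passive effect, and 34.3% lower and 15.3% higher in the active effect, where the list's share was near theirs.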

How the data were processed

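Poly-A RNA of 45 libraries, 5 in each of 9 conditions, was sequenced single-end from a strand-specific kit. Per the labels and the methods, the authors aligned reads with STAR (2.5.4b) to GRCm38 with an Ensembl annotation, counted sense reads per gene with featureCounts (1.6.5) without multi-mapping or multi-overlapping reads, and deposited raw counts. Gene names, biotypes, coordinates and coding sequences came from GENCODE M21 (GRCm38), in which 37 of 54532 rows had no match. The KRAB profile was learnt by script from these coding sequences and scored at a minimum of 0 log-odds, since no protein table was used. Each comparison was fitted on its own libraries with edgeR (4.0.16, R 4.3.3), using TMM, genes with at least 1 read, the quasi-likelihood test and a Benjamini-Hochberg adjusted p under 0.05 over all genes tested. On counts simulated for the LP active effect (31915 genes, 200 changed), 98% of 1.5-fold and 100% of 2-fold changes were recovered. Alternatives were RLE factors, filterByExpr, DESeq2 (1.42.0), a preparation block over filterByExpr genes, a fit over all 45 libraries, library totals and leaving out each preparation. The labels give the culture preparation, which pairs the libraries: same-preparation deviations over 13601 genes had mean correlations of 0.38 to 0.57 across comparisons, with single pairs from -0.23 to 0.75. The methods treat each preparation as 1 replicate. The main fits had no term for the preparation, so their p-values are unpaired. They set the effect against the spread among the libraries of a group, which includes differences between preparations. The members and lists were chosen with earlier results of these data known, and the KRAB class and library totals after these data were seen. Named genes were the 6 (2 h Bic, LP effects) or 3 called members with the largest change each way, the Zfp36 genes, the 3 highest by level and those at the minimum. Counts of preparations higher or lower compare CPM without TMM factors. Of the coding genes, 36.0% were lower and 11.4% higher in 5 of 5 preparations after 2 h Bic. The shares were 16.8% and 26.65% in the LP passive effect and 25.0% and 46.3% in the LP active effect.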

Additional observations from a re-analysis of the deposited data

Results flagged for a closer look

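Of 99 groups of 5 libraries for the 11 genes given in every library, 3 held a library whose gap to the nearest other exceeded Dixon's 95% critical value (0.71 of the range), and chance flags about 1 in 20 groups. Zfp36l1 after 0.5 h Bic was at 5.83 CPM in preparation 8 against 6.98 to 7.21 CPM in the others. Zfp275 after 2 h Bic was at 47.6 CPM in preparation 3 against 55.3 to 55.8 CPM. Zfp952 after 2 h Bic was at 9.07 CPM in preparation 8 against 6.32 to 7.08 CPM.

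For 6 named genes the active effect differed between the LP and the SP by the test of the difference (adjusted p by edgeR). The difference was 0.88 for Zfp36l2 (log2 fold change 1.27 in the LP and 0.40 in the SP), 0.47 for Zfp281 (-0.37 and -0.83) and 0.44 for Zfp362 (0.55 and 0.13). It was -1.55 for Zfp516 (-1.55 and 0.01), -1.24 for Zfp667 (-1.66 and -0.41) and -0.78 for Zfp248 (-0.71 and 0.09).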

How the results depend on the processing

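The counts of called Zfp genes depended on the fit where few were called. The fit with the culture preparation as a replicate block also tested fewer genes, those kept by filterByExpr, so the count with that filter and no block follows each: 34 after 1 h Bic (13), 30 in the SP active effect (19), 130 in the LP passive effect (89), 111 in the LP total effect (86), 11 with LP TBOA (2) and 77 for the difference between protocols (46), against 13, 14, 81, 65, 2 and 32 over all genes with a read. The block and its filter together moved no other count by over 1.5 times. The filter alone already raised the counts in the SP active, LP passive and LP total effects and for the difference between protocols. The fit with the block turned some named values into calls, such as Zfp60 after 1 h Bic. After 2 h Bic, library totals moved the coding genes called lower from 10.4% to 19.8% and ended the Zfp36l2 and Zfp667 calls. DESeq2 called 3 in the SP passive effect (1 by edgeR), 25 in the SP active effect, 8 with LP TBOA and 56 for the difference. RLE factors gave 4 with LP TBOA, the fit over all 45 libraries 0 in the SP passive effect, and library totals, chosen after seeing the data, 109 in the LP total effect and 21 for the difference. Leaving out 1 preparation gave 3 to 18 after 1 h Bic, 0 to 2 in the SP passive effect, 7 to 17 in the SP active effect, 2 to 10 with LP TBOA and 17 to 28 for the difference, against 94 to 104 after 2 h Bic, 59 to 83 in the LP passive effect and 75 to 91 in the LP active effect. Of the 71 leading calls, those with the largest changes in each comparison, all 71 stayed past the threshold under DESeq2, RLE, filterByExpr and the block, 69 in the fit over all libraries and 70 with library totals. With each preparation left out in turn, 334 calls were kept and 21 lost. A call counts here once per preparation, so Zfp362 in the LP passive effect counts 5 times. None of these reversed, and the cause was not tested. Calls outside the 71 were lost as well, such as that of Zfp36l2 after 2 h Bic under DESeq2, filterByExpr, the fit over all libraries and library totals.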
